A study of Mus musculus with 12 samples.

Results

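The genes described here are 10 components of the Notch pathway, measured on 12 one-colour arrays of mouse embryonic stem cells: the ligand genes Dll1, Dll3, Jag1 and Jag2, the receptor genes Notch1 and Notch3, and the target genes Hes1, Hes5, Hey1 and Nrarp. They were taken as every probe that the scanner files list under 1 of these 10 gene names, which gave 12 of 55681 probes and 10 of 36406 gene names. The arrays hold 3 groups of 4 samples each. Id1KO_Zrf1KD cells are Id1 knockout cells in which Zrf1 was depleted by lentiviral short hairpin RNAs and which were selected with puromycin. Id1KO cells are the Id1 knockout cells without that infection, and WT cells are wild type. All cells were grown in serum-containing medium with leukaemia inhibitory factor, and the samples of a group are described as independent biological samples. The titles name no separate lines or clones within a group, and a control hairpin group is not among the 12 samples, so the effects of the hairpin, the infection and the selection cannot be told apart in Id1KO_Zrf1KD cells.

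Notch signalling passes between touching cells. A ligand of the Delta-like or Jagged family on one cell binds a Notch receptor on its neighbour, the receptor is cleaved, and its intracellular part enters the nucleus, where it joins the DNA-binding protein Rbpj and switches on target genes. Many of these targets, among them Hes and Hey genes, encode repressors with a basic helix-loop-helix domain, while Nrarp encodes a feedback inhibitor of the receptor's intracellular part. In embryonic stem cells the pathway is known mainly for its role as cells leave the pluripotent state, above all towards the neural lineage, and Id proteins, which bind E proteins and keep them off DNA, act on the same class of helix-loop-helix factors.

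Dnajc2, the gene name under which the array lists Zrf1, was at 79.1% to 90.2% of the array's 75th percentile in Id1KO_Zrf1KD cells, 347.4% to 401.2% in Id1KO cells and 357.0% to 427.6% in WT cells, and was 4.47-fold lower in Id1KO_Zrf1KD than in Id1KO cells (limma adjusted p = 9.7e-10). The samples labelled Id1KO did not have a lower Id1 signal than WT, since Id1 averaged 237.9% ± 50.2 in Id1KO and 183.0% ± 25.4 in WT cells (SD, n = 4 each; limma adjusted p = 0.052), and under 7 of 22 alternatives it was called higher. The sources do not say where the Id1 probe lies relative to the deleted part, and the knockout labels are therefore unchecked by it. Of the spots on an array, 54.8% to 59.3% were well above background. The 75th percentile of the processed signal was 554.0 to 596.5 units in Id1KO_Zrf1KD, 393.3 to 491.8 units in Id1KO and 440.7 to 550.2 units in WT arrays, and each array was scaled to its own value. A level given as a percentage below is a probe's signal as a share of that 75th percentile. It compares arrays for 1 probe and does not rank different probes.

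Of the 10 genes, all passed the filter on dim probes, as did 11 of their 12 probes. Among 22590 genes tested, 72.0% were called in either direction between Id1KO and WT cells, 72.1% between Id1KO_Zrf1KD and Id1KO cells and 64.6% between Id1KO_Zrf1KD and WT cells, at a Benjamini-Hochberg adjusted p under 0.05. Against that background, 6 of the 10 Notch genes were called between Id1KO and WT cells (2 higher, 4 lower), 5 between Id1KO_Zrf1KD and Id1KO cells (1 higher, 4 lower) and 7 between Id1KO_Zrf1KD and WT cells (3 higher, 4 lower). A called gene is thus the ordinary case on these arrays, and the shares of Notch genes called lie near or below the background. The median log2 fold change of the 10 genes was -0.11, -0.17 and -0.22 in the 3 comparisons, against medians over all genes of 0.15, -0.09 and -0.02. The 3 comparisons share their samples in pairs, so a group that stands high or low moves 2 of them at once.

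Promoter sequences are shown for 2 ligand genes, Dll1 and Jag2, whose levels were higher in Id1KO cells, and for 2 target genes, Hes5 and Nrarp, which carry matches to the motifs searched. The sequences are the 250 bases before the annotated start in RefSeq's table for GRCm38.p6, on the gene's strand and written 5′ to 3′. Of the 10 genes, 8 were in that table, with 9 starts among them. Capitals mark each match, on either strand, to the Rbpj core TGGGAA, to the N-box CACNAG that Hes proteins bind, and to the E-box CANNTG that basic helix-loop-helix dimers bind. Dll1 has 2 annotated starts, and the second listed lies at chr17:15376933-15377182, Jag2 at chr12:112929496-112929745 (both minus strand), Hes5 at chr4:154960673-154960922 and Nrarp at chr2:25180508-25180757 (both plus strand).
Dll1: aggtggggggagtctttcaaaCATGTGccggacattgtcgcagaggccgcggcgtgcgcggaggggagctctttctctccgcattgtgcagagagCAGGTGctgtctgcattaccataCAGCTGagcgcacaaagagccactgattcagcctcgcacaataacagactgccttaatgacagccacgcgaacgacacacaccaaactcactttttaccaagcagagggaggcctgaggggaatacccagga
Jag2: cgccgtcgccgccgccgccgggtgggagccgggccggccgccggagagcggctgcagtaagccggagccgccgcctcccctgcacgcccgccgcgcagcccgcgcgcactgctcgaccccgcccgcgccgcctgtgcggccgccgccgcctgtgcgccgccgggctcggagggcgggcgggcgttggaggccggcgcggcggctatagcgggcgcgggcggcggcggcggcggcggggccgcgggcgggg
Hes5: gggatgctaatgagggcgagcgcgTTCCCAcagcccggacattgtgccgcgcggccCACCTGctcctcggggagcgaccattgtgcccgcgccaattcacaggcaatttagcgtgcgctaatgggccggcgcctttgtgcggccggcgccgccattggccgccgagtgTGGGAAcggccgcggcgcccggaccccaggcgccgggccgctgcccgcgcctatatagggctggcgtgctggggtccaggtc
Nrarp: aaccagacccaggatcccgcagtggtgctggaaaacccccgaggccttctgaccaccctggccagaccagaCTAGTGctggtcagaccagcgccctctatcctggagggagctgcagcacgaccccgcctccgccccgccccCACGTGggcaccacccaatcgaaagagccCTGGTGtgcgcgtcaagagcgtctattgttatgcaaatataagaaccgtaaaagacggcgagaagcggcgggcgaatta

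The Dll1 window held 3 E-boxes, which begin 229, 155 and 132 bases before the start, and the window of its other start (chr17:15375824-15376073) held 1. Neither Dll1 window held the Rbpj core or the N-box, and the Jag2 window, with 87.2% G and C, held none of the 3 motifs. The Hes5 window held 2 Rbpj cores, at 226 and 82 bases before the start, on opposite strands, and both extend to the longer GTGGGAA. The Nrarp window held no Rbpj core but 2 N-boxes, at 179 and 79 bases, and the E-box CACGTG at 108 bases. These letters are common: among 32851 promoters, 21.6% held TGGGAA, 5.42% GTGGGAA, 36.7% CACNAG, 6.02% CACGTG and 66.2% CANNTG. Of the other member promoters, Notch3 held 2 N-boxes and Notch1 held 1, while Dll3 and Jag1 held neither an N-box nor an Rbpj core. E-boxes were also in the windows of Dll3 (2), Jag1 (1) and Hes5 (1), and not in those of Notch1 and Notch3. A match describes the window and is not a measured binding site.

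Among the ligands, Dll1 was the gene that set the groups furthest apart. Dll1 encodes a transmembrane Delta-like ligand that activates Notch receptors on neighbouring cells. Its level was 35.9%, 34.4%, 32.6% and 37.3% in the 4 Id1KO_Zrf1KD samples, 73.6%, 66.4%, 68.6% and 69.8% in the Id1KO samples and 20.2%, 20.9%, 19.6% and 19.6% in the WT samples. All Id1KO samples stood above all others, the Id1KO_Zrf1KD samples lay between, and no groups overlapped.

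Dll1 rose 3.47-fold in Id1KO against WT cells (95% interval 3.20 to 3.76, limma adjusted p = 2.2e-10). It was 1.99-fold lower in Id1KO_Zrf1KD than in Id1KO cells (adjusted p = 2.4e-08), and there it stayed 1.75-fold above WT (interval 1.61 to 1.89, adjusted p = 1.3e-07). The Dll1 probe (mm9 chr17:15504623-15504682) is printed 10 times on each array, and 8 to 10 of its spots were used. The SD over those spots was 0.05 to 0.15 on the log2 scale, where each other probe of the set has 1 spot. Each of the 3 slides held all groups, and within them the log2 fold change was 1.77, 1.74 and 1.84 for Id1KO over WT and -0.91, -1.02 and -1.10 for Id1KO_Zrf1KD over Id1KO. The Id1KO over WT fold was 2.49 with normexp background correction of the raw signal and 2.44 in the authors' deposited values.

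Jag2, a Jagged-type ligand gene, stood in the same order. Its level was 61.7%, 60.2%, 64.8% and 52.9% in Id1KO_Zrf1KD samples, 74.9%, 78.6%, 70.4% and 77.0% in Id1KO samples and 51.2%, 50.3%, 50.1% and 50.4% in WT samples. The groups did not overlap, although the lowest Id1KO_Zrf1KD sample came close to WT. Jag2 rose 1.49-fold in Id1KO against WT cells (95% interval 1.35 to 1.63, limma adjusted p = 6.6e-06). It was 1.26-fold lower in Id1KO_Zrf1KD than in Id1KO cells (adjusted p = 5.2e-04) and 1.18-fold above WT there (adjusted p = 0.0046). Its differences were smaller than those of Dll1.

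Jag1, the other Jagged ligand gene, was measured at 89.5%, 92.1%, 95.7% and 92.1% in Id1KO_Zrf1KD samples, 112.5%, 103.7%, 100.3% and 109.5% in Id1KO samples and 93.5%, 98.6%, 102.5% and 100.0% in WT samples. All Id1KO_Zrf1KD samples lay below all Id1KO samples, while both groups overlapped WT. Jag1 was 1.15-fold lower in Id1KO_Zrf1KD than in Id1KO cells (limma adjusted p = 0.0027). Id1KO over WT, at 1.08-fold (95% interval 1.0 to 1.16), did not pass the adjusted test (adjusted p = 0.061), and neither did Id1KO_Zrf1KD over WT at 0.94-fold (adjusted p = 0.11).

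Dll3 encodes a divergent Delta-like protein that acts inside the signal-sending cell and does not activate receptors on neighbours. Its brighter probe read 91.9%, 89.3% and 80.2% in 3 Id1KO_Zrf1KD samples, 102.8%, 103.0%, 86.0% and 90.5% in Id1KO samples and 95.5%, 96.5%, 100.5% and 103.4% in WT samples. The spot of Id1KO_Zrf1KD replicate 3 was marked as an outlier by the scanner software and left out, so the fit used 3 values in that group. No Dll3 comparison passed the limma test. Id1KO over WT was 0.96-fold (95% interval 0.86 to 1.08, adjusted p = 0.52), Id1KO_Zrf1KD over Id1KO 0.91-fold (adjusted p = 0.16), and Id1KO_Zrf1KD over WT 0.88-fold (interval 0.78 to 0.99, adjusted p = 0.059), with its 3 samples below every WT sample. The fainter Dll3 probe, which had a value on all arrays, gave 0.95, 0.96 and 0.91-fold and overlapping groups, with no adjusted p under 0.05.

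**Figure D1:**
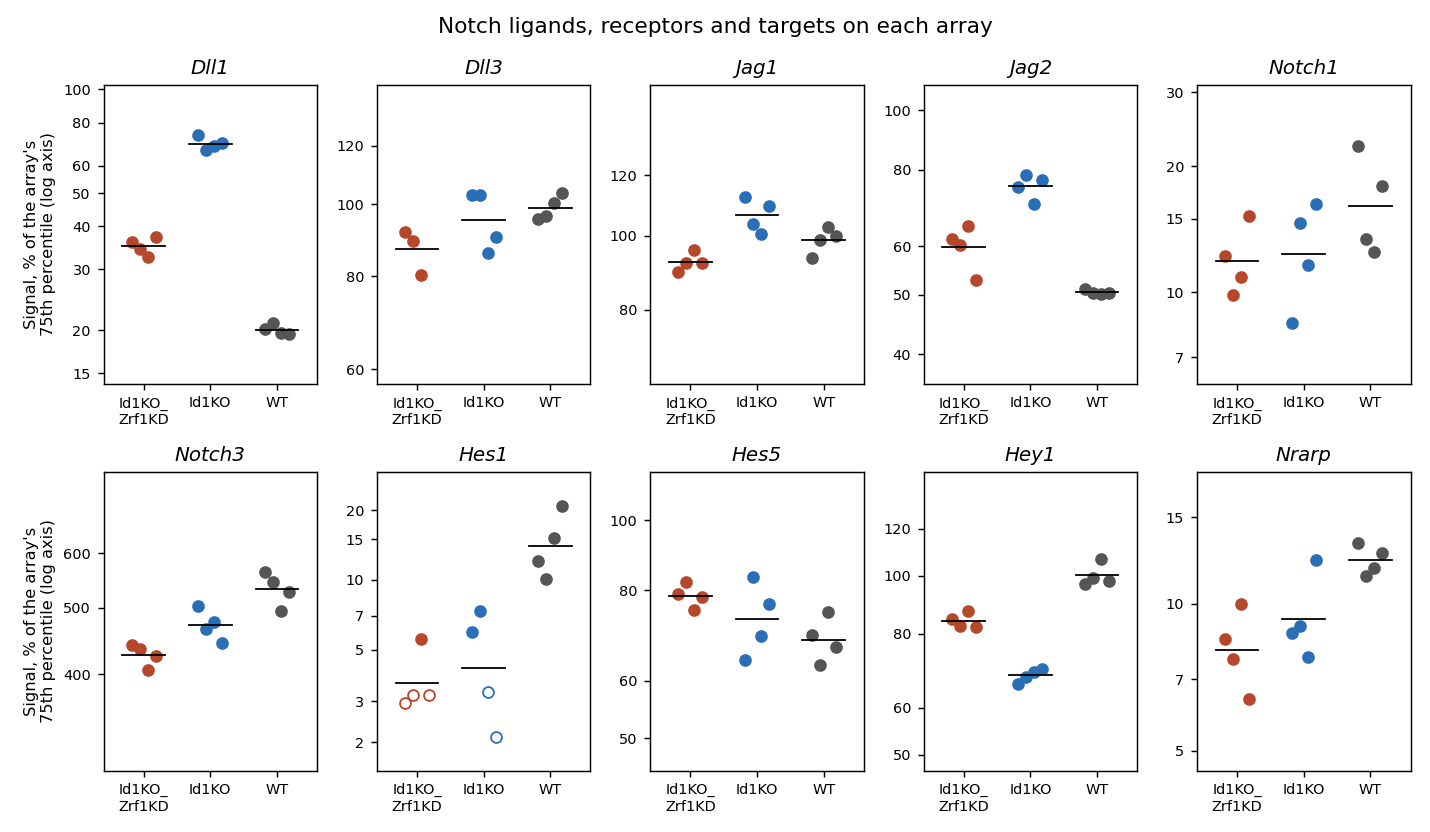
Level of each gene on each array, as a percentage of the array's 75th percentile (log axis), for Id1KO_Zrf1KD, Id1KO and WT samples from left to right. Points are arrays, bars are means on the log scale, and open points were not well above background; Dll1 runs at 32.6% to 37.3%, 66.4% to 73.6% and 19.6% to 20.9% in the 3 groups, and Hey1 has its Id1KO samples lowest.

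In the plot of levels by array, the Dll1 and Jag2 panels have Id1KO at the top, and the Hey1 panel has Id1KO at the bottom. The Notch3 panel steps down towards Id1KO_Zrf1KD. The Notch1, Hes1 and Nrarp panels show a wider scatter of arrays.

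Notch3 encodes a receptor of the family. Its level was 441.5%, 435.7%, 405.3% and 425.3% in Id1KO_Zrf1KD samples, 502.8%, 465.2%, 476.9% and 443.6% in Id1KO samples and 563.5%, 544.1%, 495.1% and 527.5% in WT samples. All Id1KO_Zrf1KD samples lay below all samples of the other groups, while the highest Id1KO sample overlapped the lowest WT sample. Notch3 was 1.13-fold lower in Id1KO than in WT cells (limma adjusted p = 0.014) and 1.25-fold lower in Id1KO_Zrf1KD than in WT cells (adjusted p = 3.4e-04). Its fall in Id1KO_Zrf1KD against Id1KO cells was 1.11-fold (95% interval 1.02 to 1.20, adjusted p = 0.033), a call that was lost with normexp (adjusted p = 0.071), without the filter on dim probes (adjusted p = 0.060), and when any of Id1KO_Zrf1KD replicates 3 and 4 or Id1KO replicates 1 and 3 was left out.

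Notch1, the receptor best known from lymphocyte and neural development, had 2 probes. The 1 that passed the filter read 12.2%, 9.8%, 10.9% and 15.2% in Id1KO_Zrf1KD samples, 8.5%, 14.6%, 11.6% and 16.3% in Id1KO samples and 22.3%, 13.4%, 12.5% and 18% in WT samples. The groups overlapped, and no comparison passed the limma test: Id1KO over WT was 0.77-fold (95% interval 0.53 to 1.11, adjusted p = 0.17). With quantile normalization and in the authors' deposited values, the same difference passed the test, with log2 fold changes of -0.65 (adjusted p = 0.016) and -0.35 (adjusted p = 0.012). The other Notch1 probe, nearer the transcript's 3′ end (target positions from 8221 against 5898), was not well above background on any of the 12 arrays.

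Among the targets, Hes1 and Hey1 were lower in both Id1KO groups than in WT cells. Hes1 encodes a repressor that oscillates in embryonic stem cells and is a textbook Notch target. It was measured at 2.9%, 3.2%, 5.6% and 3.2% in Id1KO_Zrf1KD samples, 6.0%, 7.4%, 3.3% and 2.1% in Id1KO samples and 12.1%, 10.1%, 15.2% and 20.9% in WT samples. All 4 WT arrays were well above background, but only 2 of 4 Id1KO arrays and 1 of 4 Id1KO_Zrf1KD arrays were. Every WT sample lay above every other sample. Since only WT had all 4 arrays above background, Hes1 passed the filter on dim probes through WT alone, where it was high. Its folds against WT rest in part on arrays whose signal was not well above background.

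Hes1 was 3.35-fold lower in Id1KO than in WT cells (95% interval 1.85 to 6.05, limma adjusted p = 0.0018) and 3.90-fold lower in Id1KO_Zrf1KD than in WT cells (interval 2.16 to 7.04, adjusted p = 9.2e-04). Both calls held under the 4 scalings, which all used that same filter, but the size did not. Against WT, Id1KO was 1.34-fold lower with normexp and 1.53-fold lower in the authors' deposited values. For Id1KO_Zrf1KD, these were 1.67-fold and 1.52-fold lower. Between Id1KO_Zrf1KD and Id1KO cells, the fold was 0.86 (interval 0.48 to 1.55, adjusted p = 0.63). The sign of that difference changed with quantile normalization (log2 0.25), and with normexp it passed the test (log2 -0.32, adjusted p = 0.029), so no direction is given.

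Hey1, a Hairy-related repressor gene, was the target with the tightest groups. Its level was 84.8%, 82.4%, 87.3% and 82.0% in Id1KO_Zrf1KD samples, 65.9%, 67.5%, 69.0% and 69.8% in Id1KO samples and 97.1%, 99.1%, 106.9% and 98.0% in WT samples. No groups overlapped, and the order was the reverse of that for Dll1. Hey1 was 1.47-fold lower in Id1KO than in WT cells (95% interval 1.38 to 1.57, limma adjusted p = 4.7e-07). It rose 1.24-fold in Id1KO_Zrf1KD against Id1KO cells (interval 1.16 to 1.32, adjusted p = 7.1e-05), where it was still 1.19-fold below WT (adjusted p = 3.5e-04).

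Hes5, which encodes a repressor used as a reporter of Notch activity in neural progenitors, carries the pair of Rbpj cores shown above. It read 79.0%, 82.2%, 75.2% and 78.4% in Id1KO_Zrf1KD samples, 64.0%, 83.4%, 69.2% and 76.7% in Id1KO samples and 69.4%, 63.1%, 74.7% and 66.8% in WT samples. The Id1KO samples spread over the range of both other groups. Id1KO over WT was 1.07-fold (95% interval 0.94 to 1.21, limma adjusted p = 0.32) and Id1KO_Zrf1KD over Id1KO 1.08-fold (adjusted p = 0.25). Id1KO_Zrf1KD over WT, at 1.15-fold, was at the threshold (adjusted p = 0.049), and the call was lost under 13 of 22 alternatives.

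Nrarp encodes an ankyrin-repeat protein that is induced by Notch and dampens it. Its level was 8.5%, 7.7%, 9.99% and 6.4% in Id1KO_Zrf1KD samples, 8.7%, 9.0%, 7.8% and 12.3% in Id1KO samples and 13.3%, 11.4%, 11.8% and 12.7% in WT samples. All Id1KO_Zrf1KD samples lay below all WT samples, while 1 Id1KO sample reached the WT range. Nrarp was 1.53-fold lower in Id1KO_Zrf1KD than in WT cells (95% interval 1.21 to 1.94, limma adjusted p = 0.0046). The 1.32-fold lower level in Id1KO against WT cells had an adjusted p of 0.036, which was lost under 9 of 22 alternatives. It was -0.04 on the log2 scale with normexp (adjusted p = 0.60) and 0.10 within slide 2. Between Id1KO_Zrf1KD and Id1KO cells the fold was 0.86 (adjusted p = 0.24), with a log2 fold change of -0.24 that passed the test with normexp (adjusted p = 0.0053) and the opposite sign with quantile normalization (0.19, adjusted p = 0.33) and in the deposited values (0.07, adjusted p = 0.40).

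**Figure D2:**
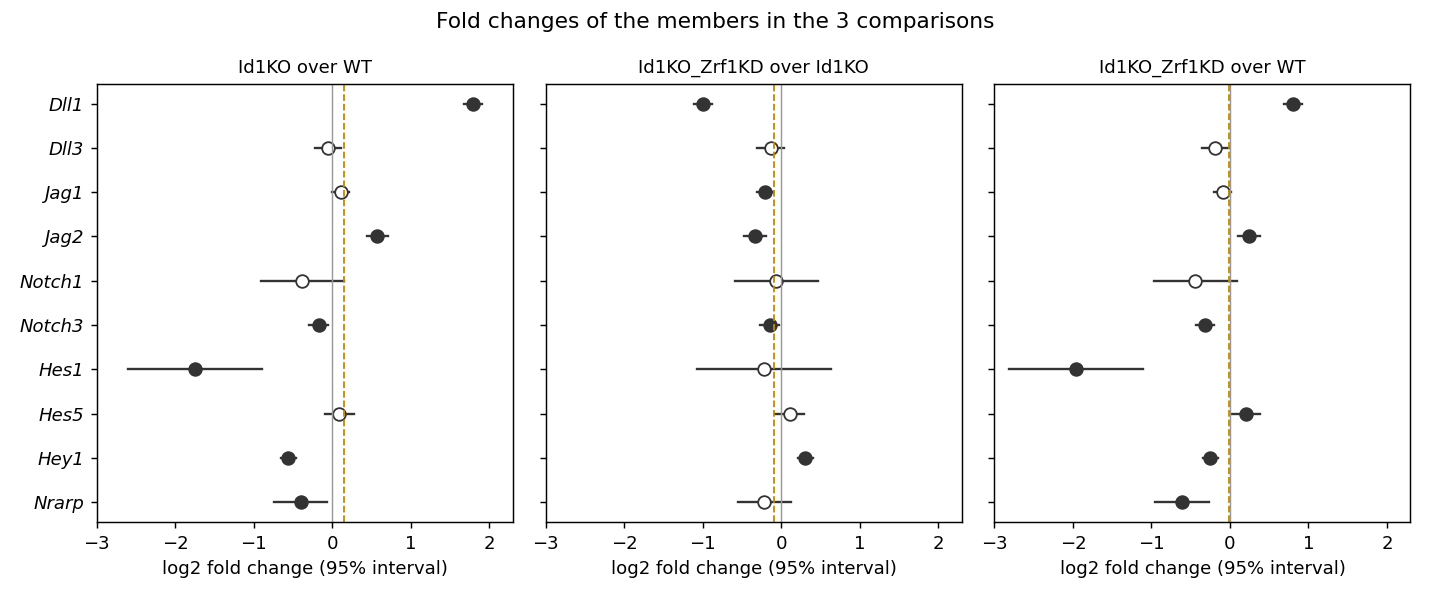
Log2 fold change of each gene with its 95% interval in the 3 comparisons; filled points passed the limma test at an adjusted p under 0.05, and the dashed line is the median of all genes (0.15, -0.09 and -0.02). Dll1 lies furthest to the right for Id1KO over WT (1.80), Hes1 furthest to the left with the widest interval (-1.74), and Dll1 is on the left for Id1KO_Zrf1KD over Id1KO (-0.99).

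The plot of fold changes sets these results side by side. For Id1KO over WT, the ligand genes Dll1 and Jag2 lay on the right of the median of all genes with no overlap of samples. The ligand genes Jag1 and Dll3 overlapped. Among the target genes, Hes1 and Hey1 lay on the left of that median with no overlap, while Hes5 and Nrarp overlapped. Hes1 passed the filter on dim probes only through WT, where it was high. In the same comparison, 65.9% of all genes had no overlap between the groups, so such a separation is common on these arrays. For Id1KO_Zrf1KD over Id1KO, Dll1, Jag2 and Hey1 each moved towards their WT level, without reaching it. Notch3 lay below WT, and Jag1 did not pass the test against WT. This comparison and Id1KO over WT share the Id1KO samples, and how many of all genes moved towards WT was not counted. The share of all genes without overlap was 67.1% for Id1KO_Zrf1KD over Id1KO and 60.9% for Id1KO_Zrf1KD over WT.

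**Figure D3:**
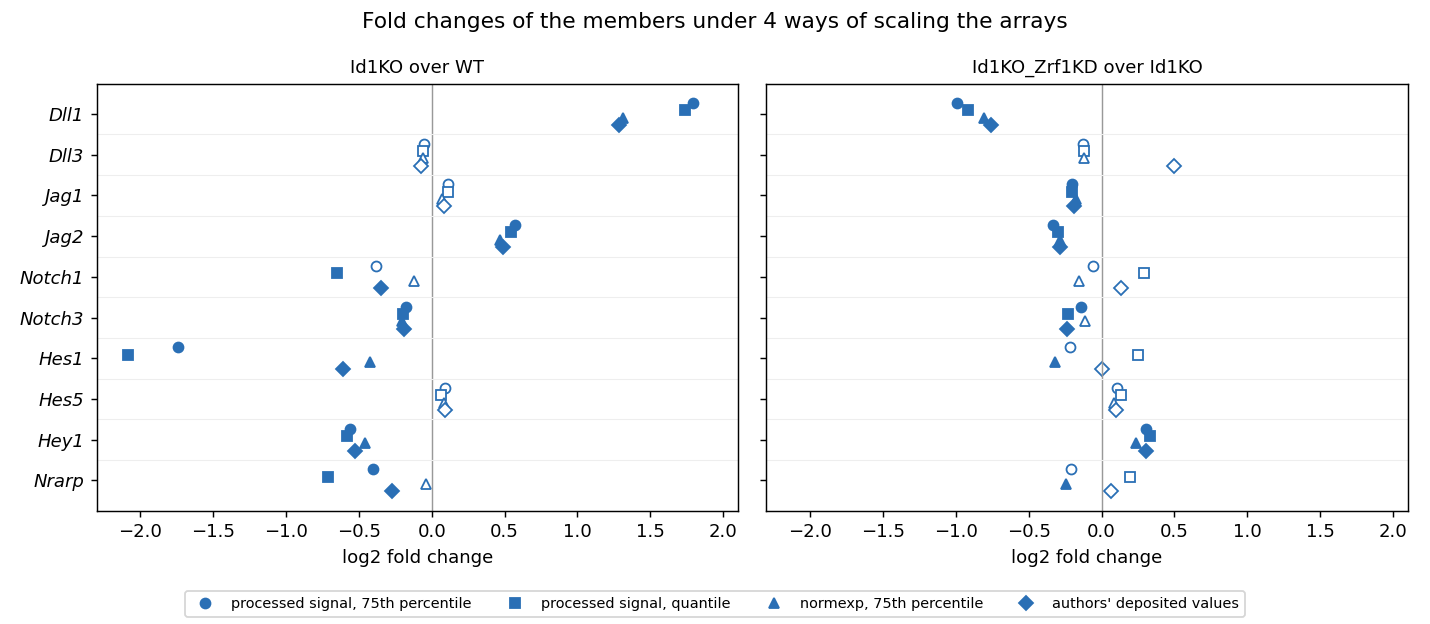
Log2 fold change of each gene under 4 ways of treating the array signals (circle, processed signal scaled to the 75th percentile; square, quantile; triangle, normexp; diamond, the authors' deposited values), for Id1KO over WT and Id1KO_Zrf1KD over Id1KO; filled symbols passed the test. Dll1, Jag2 and Hey1 keep their side of 0 and their call under all 4, while Hes1 for Id1KO over WT runs between -2.08 and -0.43.

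The plot of scalings shows which genes are firm in size. The median of all genes for Id1KO over WT itself shifted, to 0.02 with quantile normalization and 0.01 in the deposited values against 0.15 here, so a fold change near that size has no settled sign relative to other genes. Jag2 and Hey1 moved little between scalings, while Hes1 moved by over 1 log2 unit for Id1KO over WT. The Dll3 difference between Id1KO_Zrf1KD and Id1KO cells was 0.50 in the deposited values and -0.13 here, and the deposited values include the spot that was left out.

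The levels most like those of each gene across the 12 arrays were found by Pearson correlation among 13483 genes with a symbol and a value on every array, as a description. For Dll1 these were Clns1a and Flywch2 (r = 0.998 each). For Jag2 they were Skap1 (0.984) and Rbm43 (0.972), and for Hey1 Galnt12 (0.993) and Mgrn1 (0.992). For Hes1 they were Serpinb6d (0.985) and Zfp319 (0.979), and for Notch3 Rbl2 (0.976) and Tbl2 (0.964). Likeness was weaker for Jag1 (Esco2, 0.934), Dll3 (Sbf2, 0.920, over 11 arrays), Notch1 (Lrrc23, 0.905), Nrarp (Zfp182, 0.879) and Hes5 (Sh3glb2, 0.852). The arrays fall into 3 groups, so a high r here mostly restates the 3 group levels.

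Beyond the 10 genes, 67 other genes of the pathway were listed, of which 60 were tested. Of these 60, 14 were higher and 31 lower in Id1KO against WT cells, with a median log2 fold change of -0.27, where the whole array had 42.5% of genes higher and 29.6% lower. In Id1KO_Zrf1KD against Id1KO cells, 37 were higher and 13 lower (median 0.39), where the whole array had 32.3% higher and 39.8% lower. Among the 13618 genes that carry a gene symbol, as all of these do, 35.4% were higher and 39.6% lower in Id1KO against WT, and 44.0% higher and 29.5% lower in Id1KO_Zrf1KD against Id1KO. In Id1KO_Zrf1KD against WT cells, 25 of the 60 were higher and 17 lower, against 32.4% and 32.2% of all genes, and 38.5% and 32.6% of those with a symbol.

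Genes for receptor cleavage, which include the γ-secretase subunits, were mostly lower in Id1KO cells: 1 of 9 was higher and 6 lower against WT, and 8 of 9 were higher and 1 lower in Id1KO_Zrf1KD against Id1KO. Furin, whose protease makes the first cut in the receptor on its way to the surface, was 2.3-fold lower in Id1KO than in WT cells (limma adjusted p = 2.0e-07) and 2.21-fold higher in Id1KO_Zrf1KD than in Id1KO cells (adjusted p = 3.4e-07). Aph1b, a γ-secretase subunit gene, was 2.40-fold lower in Id1KO than in WT cells. Psen2, a gene for the catalytic subunit, was 1.63-fold lower in Id1KO_Zrf1KD than in WT cells, and Id1KO cells had the lowest level. Its mean was 321.8% in Id1KO_Zrf1KD, 280.7% in Id1KO and 525.7% in WT cells. Ncstn, the nicastrin gene, was well above background on 4 of 4 Id1KO_Zrf1KD arrays and 0 of 4 Id1KO arrays. It passed the filter on dim probes only through Id1KO_Zrf1KD, the group where it was high, and is among the 8 genes counted as higher. With the main scaling, its signal was higher by at least 1.73-fold in Id1KO_Zrf1KD than in Id1KO cells (adjusted p = 2.0e-04). With normexp the fold was 1.06 and the call was lost, so no size is settled. Against WT, where 1 of 4 arrays was above background, it was 2.42-fold higher in Id1KO_Zrf1KD cells and 1.24-fold under the scaling with the smallest difference.

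Genes for ligand endocytosis and receptor glycosylation gave 0 higher and 7 lower of 9 in Id1KO against WT cells, and 4 higher and 3 lower in Id1KO_Zrf1KD against Id1KO. Neurl1a, a ubiquitin ligase gene that acts on ligands, was 1.89-fold lower in Id1KO than in WT cells (limma adjusted p = 4.8e-09), and Lfng, the lunatic fringe glycosyltransferase gene, was 2.16-fold lower, with 2 of 4 Id1KO arrays above background and a fold of 1.17 under the scaling with the smallest difference. Mib1, the mind bomb ligase gene, was 1.5-fold higher in Id1KO_Zrf1KD than in Id1KO cells (adjusted p = 5.4e-06). Poglut1, an O-glucosyltransferase gene, was 1.96-fold lower in Id1KO_Zrf1KD than in WT cells, and Neurl1a 1.89-fold lower. Pofut1, an O-fucosyltransferase gene, was 1.5-fold higher in Id1KO_Zrf1KD than in Id1KO cells by its brighter probe and 1.08-fold, not called, by the other.

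In the nuclear complex and its corepressors, 4 of 15 genes were higher and 6 lower in Id1KO against WT cells, and 12 were higher and 1 lower in Id1KO_Zrf1KD against Id1KO. Rbpj itself, by its brighter probe, averaged 1421% ± 68.7 in Id1KO_Zrf1KD, 866.1% ± 33.0 in Id1KO and 1295% ± 33.2 in WT cells (SD, n = 4 each). It was 1.5-fold lower in Id1KO than in WT cells (limma adjusted p = 6.1e-07), where its second probe showed no called difference (log2 0.09, adjusted p = 0.40). In Id1KO_Zrf1KD against Id1KO cells it rose 1.64-fold (adjusted p = 1.3e-07), and 2.02-fold by the second probe. Corepressor genes of the Groucho family differed among themselves: in Id1KO against WT cells, Tle3 (log2 -0.52) and Aes (log2 -0.59) fell and Tle2 was not called (log2 -0.11), whereas Tle4 was 2.04-fold and Tle1 1.96-fold higher, although 1 of the 3 Tle1 probes gave 1.08-fold and no call (Tle2, Tle3 and Aes were added to the named genes after their values were seen). Spen, a corepressor gene that binds Rbpj, rose 2.02-fold in Id1KO_Zrf1KD against Id1KO cells. Maml3, a Mastermind-like coactivator gene, rose 2.78-fold there, with 2 of 4 Id1KO arrays above background and 1.35-fold under the scaling with the smallest difference. In Id1KO_Zrf1KD against WT cells, Tle1 was 3.02-fold higher by its brightest probe and 2.21-fold and 1.60-fold by the others. Maml3 was 2.86-fold higher there, or 1.53-fold under the scaling with the smallest difference. Rbpj was 1.10-fold higher there (adjusted p = 0.026), a call lost under the other 3 scalings, while its second probe gave 2.15-fold (adjusted p = 1.1e-06).

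**Figure D4:**
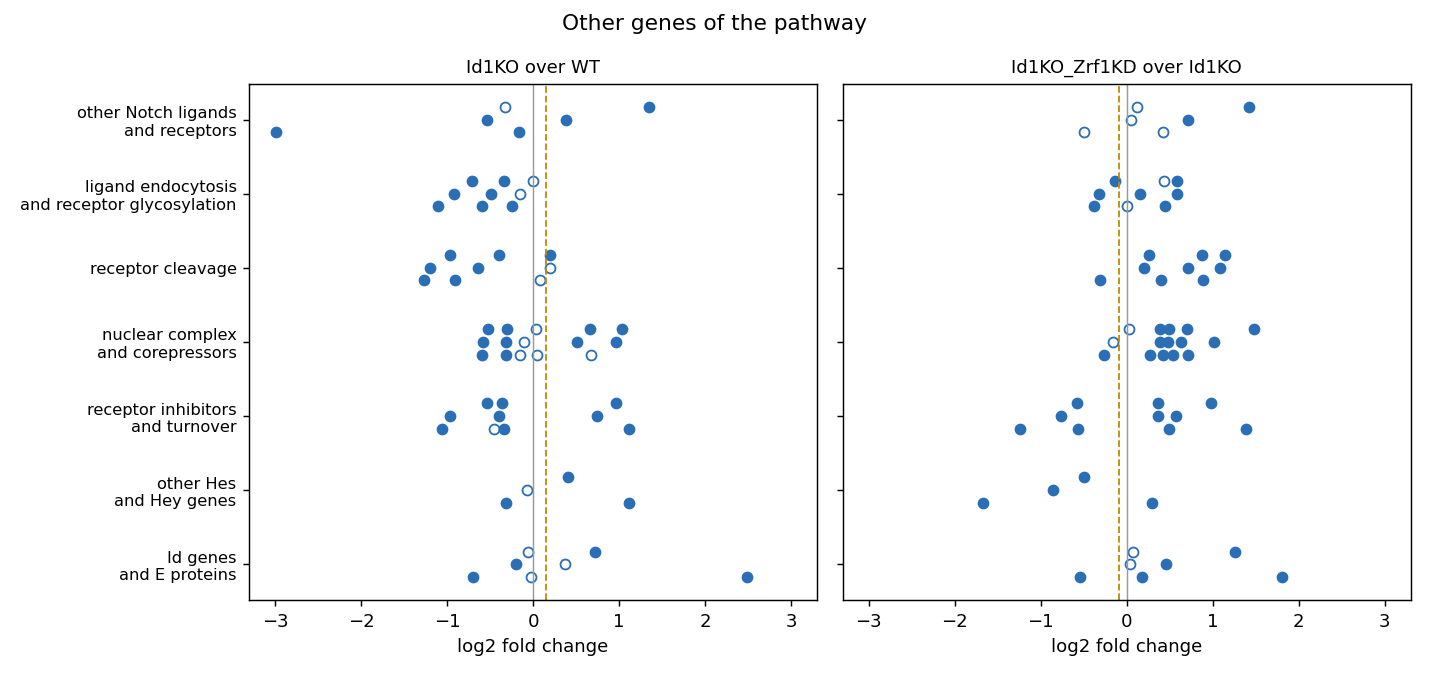
Log2 fold changes of the 60 other pathway genes tested, 1 point a gene, by list, for Id1KO over WT and Id1KO_Zrf1KD over Id1KO; filled points passed the limma test at an adjusted p under 0.05, and the dashed line is the median of all genes (0.15 and -0.09). In the receptor cleavage list of 9 genes, 6 filled points lie on the left in the first panel and 8 on the right in the second.

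The plot of the other pathway genes has these lists as rows. The other ligand and receptor genes had 2 of 6 higher and 3 lower in Id1KO against WT cells, and 2 higher and 0 lower in Id1KO_Zrf1KD against Id1KO. Dll4, another activating Delta-like ligand gene, rose 2.54-fold in Id1KO against WT cells (limma adjusted p = 1.5e-04). Dll1 and Dll4 were thus both called higher there, while Dll3 was not called. Dner, a Delta-like membrane protein gene, was 7.95-fold lower in Id1KO than in WT cells, with 1 of 4 Id1KO arrays above background and 2.49-fold under the scaling with the smallest difference. Notch2 was 1.64-fold higher in Id1KO_Zrf1KD than in Id1KO cells (adjusted p = 4.7e-08), and 1.29-fold, not called, by its other probe. Between Id1KO and WT cells its 2 probes disagreed, with 1.12-fold lower by the brighter and 1.76-fold higher by the other. In Id1KO_Zrf1KD against WT cells, Notch2 was 1.47-fold higher by its brighter probe and 2.27-fold by the other. Dll4 was 1.80-fold higher there, and Dner 2.97-fold lower, or 1.92-fold under the scaling with the smallest difference.

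Among other Hes and Hey genes, 4 of 9 were tested. Hes6, which encodes a Hes family member that opposes Hes1, was 2.16-fold higher in Id1KO than in WT cells (limma adjusted p = 3.8e-09) and 1.81-fold lower in Id1KO_Zrf1KD than in Id1KO cells (adjusted p = 3.5e-08). Its levels in these 2 comparisons stood in the same order as those of Dll1. Hes2 was 3.18-fold lower in Id1KO_Zrf1KD than in Id1KO cells and 1.49-fold lower under the scaling with the smallest difference. It was 3.35-fold lower in Id1KO_Zrf1KD than in WT cells, or 1.67-fold at the least. Hes7 was 1.33-fold higher in Id1KO than in WT cells, and Hes6 1.20-fold higher in Id1KO_Zrf1KD than in WT cells. Of 10 genes for receptor inhibitors and turnover, 3 were higher and 6 lower in Id1KO against WT cells, and 6 higher and 4 lower in Id1KO_Zrf1KD against Id1KO. Dtx1, a Deltex gene, was 2.09-fold lower in Id1KO than in WT cells and 3.56-fold lower in Id1KO_Zrf1KD than in WT cells. Another Deltex gene, Dtx3l, was 2.16-fold higher in Id1KO than in WT cells (1.41-fold, not called, by its other probe), and Dtx3 was 2.37-fold lower in Id1KO_Zrf1KD than in Id1KO cells. Fbxw7, whose ubiquitin ligase turns over the receptor's intracellular part, was 2.63-fold higher in Id1KO_Zrf1KD than in Id1KO cells by its brighter probe. That probe ran from 38.9% to 178.1% over the Id1KO arrays. Its log2 fold change was 2.96 within slide 1, against 0.89 and 0.92 within slides 2 and 3. By the other probe Fbxw7 was 1.26-fold higher, and 1.20-fold under the scaling with the smallest difference. Sel1l, a gene for a degradation adaptor of the endoplasmic reticulum, was 1.56-fold higher in Id1KO_Zrf1KD than in WT cells.

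Id genes encode inhibitors that pair with E proteins, and Id1 is the member that the knockout labels name. Id3 rose 5.62-fold in Id1KO against WT cells (limma adjusted p = 9.3e-11) and a further 3.50-fold in Id1KO_Zrf1KD against Id1KO cells (adjusted p = 1.3e-09), to stand 19.7-fold above WT. Id2 rose 1.65-fold in Id1KO against WT cells and 1.87-fold in Id1KO_Zrf1KD against WT cells, and Id4 2.39-fold in Id1KO_Zrf1KD against Id1KO. Of the 7 Id and E protein genes, 2 were higher and 2 lower in Id1KO against WT, and 4 higher and 1 lower in Id1KO_Zrf1KD against Id1KO. The lower gene there was Id1, at 1.46-fold (limma adjusted p = 0.0077), although the samples of the groups overlapped. In Id1KO_Zrf1KD against WT cells, Id1 was 0.88-fold and not called (adjusted p = 0.33).

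Markers of other cell types also differed between the groups, in an order that was not the same for all lists. The summed level of 12 primitive and parietal endoderm markers was 395 to 409 times the 75th percentile in Id1KO_Zrf1KD, 122 to 128 times in Id1KO and 219.7 to 232.9 times in WT samples, and 12 of 12 were higher in Id1KO_Zrf1KD against Id1KO. The sum of 12 fibroblast markers was 159.7 to 162.3, 75.8 to 81.2 and 90.6 to 100.6 in those groups, again with 12 of 12 higher. In that comparison 32.3% of all genes were higher and 39.8% lower, and 44.0% and 29.5% of those with a symbol. Against WT, Id1KO had 3 endoderm markers higher and 6 lower, and 2 fibroblast markers higher and 7 lower. There 42.5% of all genes were higher and 29.6% lower, and 35.4% and 39.6% of those with a symbol. Of the 12 fibroblast markers, 12 were well above background in Id1KO_Zrf1KD, 10 to 11 in Id1KO and 11 in WT samples. The sum of 12 neural progenitor markers was 6.36 to 6.99, 4.93 to 5.51 and 7.40 to 8.18, and 3 of 8 tested were higher and 2 lower in Id1KO against WT, and 2 higher and 5 lower in Id1KO_Zrf1KD against Id1KO. The sum of 10 endothelial markers was 7.02 to 8.0, 9.80 to 11 and 7.68 to 8.44, with 2 of 8 tested higher and 4 lower in Id1KO against WT and 6 higher and 2 lower in Id1KO_Zrf1KD against Id1KO. The embryonic stem cell markers were all well above background, with a sum over 9 genes of 926 to 942 in Id1KO_Zrf1KD, 1114 to 1242 in Id1KO and 1043 to 1194 in WT samples. In Id1KO_Zrf1KD against Id1KO, 6 of 10 were higher and 3 lower, and in Id1KO against WT 4 were higher and 5 lower. Dppa5a, named here because it made up the largest share of that sum, was lower in Id1KO_Zrf1KD than in Id1KO (log2 -0.67). The sum was thus lower there although 6 of the 10 markers were higher. The part of these markers in the Notch results was not tested, and in bulk RNA fewer cells of a type and less RNA per cell cannot be told apart.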

How the data were processed

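Total RNA of 12 cultures was labelled with Cy3 and hybridised to 1-colour arrays. Per the file headers, Agilent Feature Extraction 10.7.3.1 produced the deposited scanner files, which give the intensity of each spot: a raw mean signal, a background median, and a processed signal, background-subtracted and detrended, with flags per spot. In the authors' deposited table are log2 values with a median of 6.55 in every column; its background correction, normalization and any centring are not given in the sources used here.

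The processed signal was put on a log2 scale, the 75th percentile of its array was subtracted, and the spots of a probe that carry no outlier flag were averaged (108 to 302 flagged spots per array, none saturated). Probes were kept if, on all 4 arrays of a group, a share of 0.5 or more of their spots was well above background (30879 of 55681), and the brightest stood for its gene (22590). Groups were compared in 1 fit over all 12 arrays with limma 3.58.1 (R 4.3.3, data.table, version 1.17.8), two-sided, with Benjamini-Hochberg adjustment over all genes; the script was tested on simulated data. The number of arrays limits the precision, and p-values measure the spread between cultures. Where no array of a group was above background, a fold is a lower bound against the lowest signal above background. The normexp correction used an offset of 50.

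The arrays came from 3 slides. Replicate numbers are shared by the groups. Deviations from group means correlated with a median r of -0.20 over 12 same-numbered pairs (-0.44 to 0.40), so the numbers were not used as pairs. The median r was 0.24 over 16 same-slide pairs (0.06 to 0.40) and -0.18 over 32 pairs on different slides. The main fit has no term for slide, which entered as a block in an alternative. Alternatives were quantile, normexp and deposited values, no filter, the mean of a gene's probes, keeping outlier spots, slide and replicate blocks, 2-group fits and leaving out each array; a fainter Dll3 probe was added after its values were seen. All 10 members are named; of other pathway genes, the up to 2 called genes with the largest change per list and comparison are named, plus Id1, Rbpj, Notch2 and Dnajc2. Members and lists were chosen with earlier results of these data known. Probe coordinates are mm9, promoter coordinates GRCm38.p6, and the 2 were not mixed. Sequences are RefSeq's.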

Additional observations from a re-analysis of the deposited data

Results flagged for a closer look

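The Hes1 level of Id1KO_Zrf1KD replicate 3, at 5.57% of the array's 75th percentile, stood far from the other 3 arrays of its group, which lay between 2.94% and 3.21%. Its gap to the nearest array was 0.863 of the group's whole range, above Dixon's critical value for 4 samples. It was the only array of the group on which the Hes1 spot was well above background. Chance marks about 1 in 20 groups in this way. The screen covered the 12 member probes in each of the 3 groups, except where a group had fewer than 4 values. No other level passed the critical value.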

How the results depend on the processing

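The counts of higher and lower genes among the members and the other pathway genes stayed within 1.5 times their reported values under every alternative run. The calls of Dll1, Jag2, Hey1 and Hes1 against WT, and of Dll1, Jag2, Jag1 and Hey1 between Id1KO_Zrf1KD and Id1KO, kept their direction and passed the test under all 22 alternatives each. Each of these genes has 1 probe, so the mean of a gene's probes and the fainter Dll3 probe left its own values unchanged. Hes1 entered the test only through WT, the group where it was high. The log2 fold change of Dll1 for Id1KO over WT ranged between 1.29 and 1.82. With a replicate block, 2 of the members were higher and 3 lower in Id1KO against WT, and the calls of Nrarp for Id1KO over WT (adjusted p = 0.076) and of Hes5 (0.089) and Rbpj (0.056) for Id1KO_Zrf1KD over WT were lost. Of 12 arrays, 1 correlated best with an array that shares its number. Among called differences, the sign turned for Rbpj in Id1KO_Zrf1KD over WT with the deposited values (-0.0075), for Notch2 in Id1KO over WT with the mean of its probes (0.33, adjusted p = 0.012) and for Nrarp in Id1KO over WT within slide 2 (0.10). The 2 Notch2 probes differ in sign, and the cause of the turns of Rbpj and Nrarp was not tested. Differences that were not called also turned sign under some alternatives, for example those of Hes1, Nrarp and Notch1 between Id1KO_Zrf1KD and Id1KO with quantile normalization and that of Dll3 with the deposited values. Calls were gained for Jag1 in Id1KO over WT with slide as a block (adjusted p = 0.028), or without Id1KO replicate 3 or WT replicate 3, and for Dll3 in Id1KO_Zrf1KD over WT with the mean of its probes (0.031), with only those groups fitted (0.041) or without Id1KO replicate 3 (0.041). Signal over background limits Hes1, Nrarp and Notch1.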

Other observations

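The spot of the brighter Dll3 probe on the array of Id1KO_Zrf1KD replicate 3 had a processed signal of 3218 units, against 452 to 532 units on the other 3 arrays of its group. Its mean signal was 3575 and its median signal 2323 over 38 pixels with an SD of 2766, and 5 of its pixels were set aside as high by the software. The fainter Dll3 probe read 62.9% of the 75th percentile on that array, the lowest of its group.

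The Notch1 probe that was not above background on any array read 0.70% to 2.61% of the 75th percentile in Id1KO_Zrf1KD, 0.86% to 3.75% in Id1KO and 0.76% to 3.33% in WT samples.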
